A study of Homo sapiens with 2 samples.

Results

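ERG-only peaks inside genes are stretches of acetylated histone H3 that lay within a protein-coding gene, away from its ends, and were called in the ERG library but not in the Vector library. They were chosen from the peak lists themselves: a peak of the ERG library with no overlapping Vector-library peak, overlapping a protein-coding gene record (RefSeq, hg38) and lying over 1 kb from both ends of every protein-coding gene. The presence of a peak in one list and its absence from the other are therefore the rule and not a finding. The rule gave 4082 peaks, which is 20.8% (95% interval 20.2 to 21.3) of all 19671 ERG-library peaks. Of the 18973 ERG-library peaks on chromosomes 1 to 22, X and Y, 11072 had no Vector-library peak, 58.4%, and the 4082 made up 36.9% (35.97 to 37.8) of those. Intervals on shares are exact binomial ones and cover counting error only.

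The study assayed H3K27ac, acetylation of lysine 27 of histone H3, in F36P, a human cell line established from an erythroid leukaemia, to learn how ERG holds back erythroid differentiation. The ERG library (genotype label ERG overexpression, plasmid MSCV-PIG-AM-ERG) came from cells transduced to carry added ERG. The Vector library (genotype label WT, plasmid MSCV-PIG) came from cells transduced with the empty plasmid, so its cells also went through viral transduction. Cells of both groups were kept in puromycin at 1 µg/ml for 4 days, and what AM stands for in the plasmid name was not worked out. With 1 library per group there is no replicate check: every difference below is between these libraries, groups were not tested against each other and no p-values appear.

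H3K27ac is written onto nucleosomes by the acetyltransferases CBP and p300 at active promoters and active enhancers, and deacetylases remove it. Inside genes the mark is found at intronic enhancers, which may act on the host gene or on a neighbour, and at internal promoters that start shorter transcripts. ERG belongs to the ETS family of transcription factors, which bind DNA around the letters GGAA. It is needed by blood stem cells and endothelial cells, is active in megakaryocytes, and is an oncogene in acute leukaemias.

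The cell label was checked against 8 erythroid marker genes, of which the ERG library had a peak within 1 kb of a gene end at 7, and the Vector library at 6. ALAS2, the erythroid enzyme that begins heme synthesis, had such a peak only in the ERG library, and SLC4A1, the red cell anion exchanger, had none in either library. ALAS2 and TAL1 each also held 1 of the ERG-only peaks inside the gene.

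Some of the 4082 peaks lay on a transcription start that RefSeq places inside the gene, and the sequence before such a start could be read. The start table holds, for each annotated start, a window of 300 bases, 250 before and 50 after the start. The first 250 bases of 5 windows are shown here, all from RefSeq GRCh38.p14 and written 5′ to 3′ on the strand of the transcript, picked from starts under high-scoring peaks to show windows with and without ETS letters. Capitals mark the ETS letters CCGGAA, or TTCCGG where the match is on the other strand. The peak inside ZSCAN5A, a zinc finger gene, covered 3 starts of ZSCAN5A itself and the divergent starts of the non-coding genes ZSCAN5A-AS1 and LOC105372468. The ETS letters before the ZSCAN5A start shown also lie in the window of LOC105372468, which runs the other way. The peak inside ZNF43, another zinc finger gene, covered a ZNF43 start, and that inside CHRM3, a muscarinic acetylcholine receptor gene, covered the start of the antisense gene CHRM3-AS2. The windows under the peaks inside PPCDC, a gene of coenzyme A synthesis, and EHD2, a gene of membrane trafficking, held no such letters.
ZSCAN5A, chr19:56314790-56315089, minus strand: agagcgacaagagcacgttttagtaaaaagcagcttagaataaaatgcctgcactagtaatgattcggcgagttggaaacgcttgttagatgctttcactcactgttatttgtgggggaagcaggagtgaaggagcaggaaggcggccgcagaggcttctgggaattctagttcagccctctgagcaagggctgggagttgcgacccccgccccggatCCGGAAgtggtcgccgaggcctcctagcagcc
ZNF43, chr19:21836133-21836432, minus strand: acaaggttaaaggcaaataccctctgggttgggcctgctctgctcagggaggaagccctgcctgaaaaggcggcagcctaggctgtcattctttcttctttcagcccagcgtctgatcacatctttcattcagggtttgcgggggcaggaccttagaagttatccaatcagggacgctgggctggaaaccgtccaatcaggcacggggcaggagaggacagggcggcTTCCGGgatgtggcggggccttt
CHRM3-AS2 inside CHRM3, chr1:239719070-239719369, minus strand: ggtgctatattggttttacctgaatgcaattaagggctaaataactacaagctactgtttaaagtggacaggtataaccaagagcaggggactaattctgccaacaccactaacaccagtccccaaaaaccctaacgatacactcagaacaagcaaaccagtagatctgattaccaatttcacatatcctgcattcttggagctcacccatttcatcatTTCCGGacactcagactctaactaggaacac
PPCDC, chr15:75043036-75043335, plus strand: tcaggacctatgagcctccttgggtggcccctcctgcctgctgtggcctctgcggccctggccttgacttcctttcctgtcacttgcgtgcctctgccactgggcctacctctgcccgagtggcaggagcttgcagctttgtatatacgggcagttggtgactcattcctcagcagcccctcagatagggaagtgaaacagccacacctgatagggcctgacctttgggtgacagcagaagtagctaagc
LOC124904733 inside EHD2, chr19:47729462-47729761, minus strand: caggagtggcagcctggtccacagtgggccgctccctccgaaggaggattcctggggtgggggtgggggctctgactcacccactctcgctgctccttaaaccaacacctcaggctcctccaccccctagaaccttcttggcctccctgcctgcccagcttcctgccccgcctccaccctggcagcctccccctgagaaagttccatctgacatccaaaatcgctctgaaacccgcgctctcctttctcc

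Of the peaks, 6 overlapped the hairpin of an annotated microRNA, among them MIR11401 (host SLC7A5), MIR1302-2 (host LOC124905564), MIR1914 and MIR647 (both in the uridine-cytidine kinase gene UCKL1) and MIR4748 (host DNM2). The mature sequences of the UCKL1 hairpins are shown because these hairpins lay under neighbouring peaks of 1 gene, with the seed (bases 2 to 8) in capitals, from RefSeq GRCh38.p14. All are transcribed from the minus strand of chromosome 20. No seed was shared among them. The peak over MIR1914 had 35 fragments at its summit and a deposited fold of 2.92, and that over MIR647 had 29 fragments and a fold of 2.38. A peak over a hairpin gives no level of the microRNA.
hsa-miR-1914-3p, chr20:63941474-63941495: gGAGGGGUcccgcacugggagg
hsa-miR-1914-5p, chr20:63941511-63941532: cCCUGUGCccggcccacuucug
hsa-miR-647, chr20:63942691-63942711: gUGGCUGCacucacuuccuuc

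The ERG-only peaks inside genes were short and of modest height. Their median width was 473 bp (463 to 483), against 575 bp at ERG-only peaks of gene ends, 437 bp at ERG-only peaks between genes and 912.5 bp at the 1150 shared peaks inside genes. The fragments at the summit, recovered from the deposited fold and −log10 p-value, had a median of 29 (quartiles 21 and 42, range 9 to 155). The ERG-only peaks of gene ends had a median of 30, those between genes 24 and the shared peaks inside genes 57. The deposited fold, which is the summit over its local background, had a median of 3.26, the lowest of these 4 classes, whose other medians were 4.03, 3.85 and 4.34. That low fold stood beside a raised background: the local background around the 4082 peaks had a median of 7.97 fragments (7.80 to 8.22), against 6.39 at gene ends and 5.15 between genes, and a genome-wide level of 2.31. The shared peaks inside genes had a higher background still, 11.7, and a higher fold. The summits were thus close in height to those of ERG-only peaks at gene ends, over a higher local background. That background is the peak caller's estimate, and whether it came from the ERG library or from an input library is not known.

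**Figure D1:**
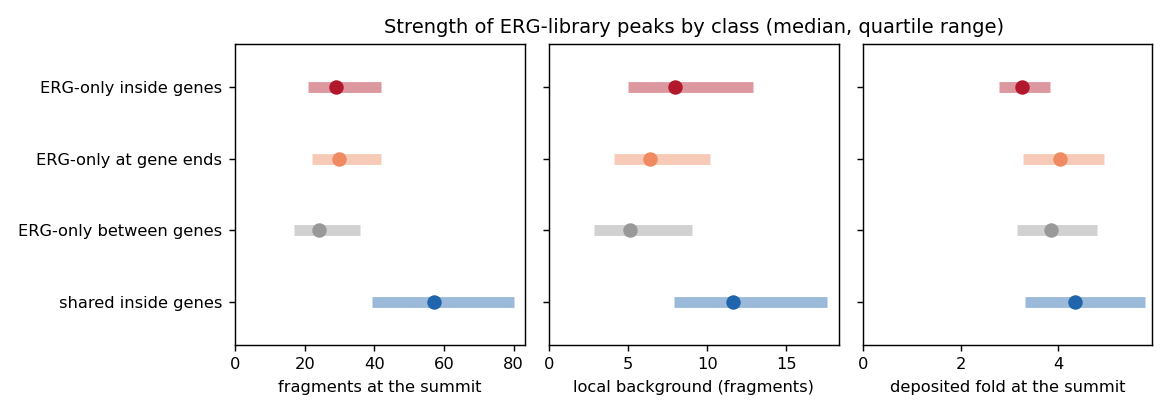
Strength of ERG-library peaks in 4 classes: fragments at the summit, local background in fragments, and deposited fold. Points are medians and bars run between the quartiles over peaks; the ERG-only peaks inside genes have a median of 29 fragments over a background of 7.97, and the lowest median fold, 3.26.

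Depth differed between the libraries and touches every count below. The genome-wide background of the ERG library was 2.31 fragments and that of the Vector library 1.60, a ratio of 1.44. After division of their fragments by that ratio, 3682 of the 4082 peaks (90.2%) would still reach the lowest −log10 p-value found in the Vector list, and 412 (10.1%) its median. At the 1150 shared peaks inside genes the ERG library had a median of 2.08 times the fragments of the Vector library (quartiles 1.65 and 2.48). Divided by this larger ratio, 2701 of the 4082 (66.2%) would still reach the lowest Vector-library value, against 82.6% of ERG-only peaks at gene ends and 72.2% between genes. A missing peak in the Vector list does not mean that no fragment lay there: at its genome background that list needed 8 fragments. With the ERG list shortened to as many top-scoring peaks as the Vector list holds, 603 peaks met the rule, which is 24.0% of the unshared ones.

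The limit of 1 kb fell in a continuous range of values. The members nearest to it lay 1001 bp from a gene end in the integrin gene ITGA10 (19 fragments), 1003 bp in SRGAP2C (37), 1004 bp in WSB2 (39), 1006 bp in the copper transporter gene ATP7A (23) and 1008 bp in ZCCHC2 (29). Just outside it, ERG-only peaks lay at 998 bp in MYO1C (26 fragments), 995 bp in CBS (33), 993 bp in MARS2 (21) and SLC22A23 (25) and 991 bp in ANKRD20A1 (19). SRGAP2C and ANKRD20A1 have near-identical copies elsewhere, so the placing of their reads is uncertain. The fragments on either side of the limit overlapped.

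By the rule these peaks overlap no Vector-library peak, and their distances to other peaks differed in part from those of the other ERG-only classes. The median distance to the nearest Vector-library peak was 45.8 kb, against 43.3 kb at gene ends and 39.9 kb between genes. Of the 4082, 6.15% (5.43 to 6.93) lay within 1 kb of one, 18.2% within 10 kb and 71.3% within 100 kb. Within 1 kb the share was 11.15% (10.1 to 12.3) at gene ends and 5.30% (4.60 to 6.07) between genes. The median distance to the nearest other ERG-library peak was 12.9 kb, and 25.2% (23.9 to 26.6) had one within 1 kb, in a list of 19671 peaks against 9161 in the Vector list. At gene ends 22.6% (21.2 to 24.1) had one within 1 kb, and between genes 20.8% (19.5 to 22.1). The nearest to a Vector-library peak were in SCGB2B2 at 11 bp, UBAC1 at 32 bp, DNAJC6 at 61 bp, SGK3 at 70 bp and FAM117A at 122 bp. Those at such distances are next to acetylation called in the Vector library and count as absent from it only because the intervals did not touch.

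The share of ERG-library peaks without a Vector-library peak differed with their place relative to genes. Inside genes 78.0% (76.9 to 79.1; 4082 of 5232) had none, at gene ends 38.4% (37.4 to 39.5; 3255 of 8466) and between genes 70.8% (69.6 to 72.0; 3735 of 5275). In the Vector list, of 9161 peaks against 19671 in the ERG list, 328 peaks inside genes had no ERG-library peak. The share that these make of Vector-library peaks inside genes is not given here, so 328 and 4082 are not on a like footing. The 328 had a median width of 334.5 bp and a median summit of 16 fragments.

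The 4082 peaks fell in 2589 host genes, which is 12.9% of 20037 protein-coding genes, and 81 peaks lay in more than 1 gene record. A single peak was found in 1735 hosts (67.0%), 2 peaks in 485, and 3 or more in 369 hosts, which together held 35.7% (34.2 to 37.2) of the peaks. Host genes were long, with a median record of 80.5 kb against 24.1 kb over all protein-coding genes. The share of genes that were hosts was 0.376% under 5 kb, 5.10% from 5 to 20 kb, 12.0% from 20 to 50 kb, 20.8% from 50 to 100 kb, 29.99% from 100 to 200 kb and 36.9% (34.4 to 39.5) over 200 kb. A longer gene has more interior in which a peak can lie, so densities per Mb of interior are given next.

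With all lengths pooled, genes acetylated at their ends held more of these peaks per Mb. Genes whose end peaks came from the ERG library only had 5.34 ERG-only peaks per Mb of interior (5.0 to 5.70, Poisson interval), genes with end peaks from both libraries 5.23 (4.99 to 5.48), and genes with an end peak in neither 1.97 (1.87 to 2.08). For all lengths together, the intervals for genes with ERG-library end peaks only and with both kinds overlapped. In genes of 5 to 20 kb the densities were 7.95, 6.22 and 5.35 per Mb in the same order, and in genes over 200 kb 3.94, 4.58 and 1.12. In genes of 5 to 20 kb the interval for genes with an end peak in both libraries (5.04 to 7.58) overlapped that for neither (4.54 to 6.26), as did those from 20 to 50 kb (4.31 to 5.49 and 3.64 to 4.67). In the 3 bands above 50 kb they were apart. Genes with ERG-library end peaks only stood apart from those with both in the band from 20 to 50 kb. The densities there were 6.87 (5.89 to 7.98) and 4.87 (4.31 to 5.49), and in the other bands these intervals overlapped. Shared peaks inside genes numbered 1.23, 1.32 and 0.702 per Mb in genes with ERG-library end peaks only, with both and with neither. Among the hosts, end peaks came from the ERG library only in 20.7%, from both libraries in 41.7% and from the Vector library only in 0.618%, and 37.0% had none. Any ERG-library end peak was found at 62.4% (60.5 to 64.3) of hosts, against 47.6% (46.8 to 48.3) of the 18735 genes with an interior.

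**Figure D2:**
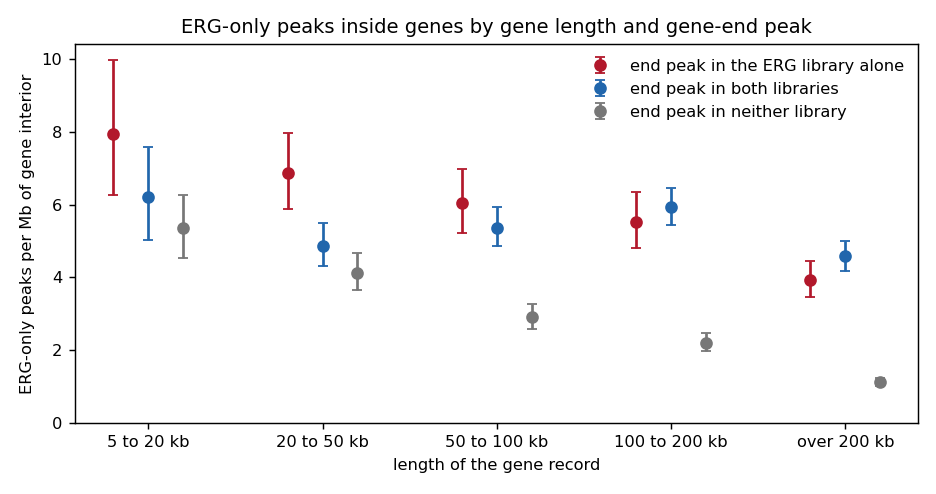
ERG-only peaks per Mb of gene interior by length of the gene record, for genes with end peaks from the ERG library only, from both libraries or from neither. Points are densities and bars 95% Poisson intervals; in genes over 200 kb the densities are 3.94, 4.58 and 1.12 per Mb, and in genes of 5 to 20 kb 7.95, 6.22 and 5.35.

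The peaks leaned to the 5′ side of their genes, most of all near the limit. For 3287 peaks with 1 host gene of known strand, 56.0% (54.3 to 57.7) of the summits lay in the first 50% of the record, 28.2% in the first 25% and 20.2% in the last 25%. Of the shared peaks inside genes, 63.4% (60.2 to 66.4) lay in the first 50%, 35.4% in the first 25% and 15.2% in the last 25%. From 1 to 2 kb from the gene end there were 7.50 ERG-only peaks per Mb (6.12 to 9.08) on the 5′ side and 2.38 (1.64 to 3.35) on the 3′ side. From 2 to 5 kb the densities were 4.25 and 3.69 per Mb, lower on the 5′ side than from 5 to 10 kb, and their intervals overlapped. From 5 to 10 kb they were 5.49 and 3.97, from 10 to 20 kb 4.63 and 3.65, and from 20 to 50 kb 3.93 and 3.18, with intervals apart. The intervals overlapped again from 50 to 100 kb (3.08 and 2.63) and beyond 100 kb (1.71 and 1.51). Over whole records, 57.8% (55.7 to 59.9) of summits lay in the first 50% in genes with an ERG-library end peak. In genes without one the share was 52.7% (49.7 to 55.7), an interval that took in 50%. At 1 to 2 kb those genes also leaned, with 6.02 peaks per Mb on the 5′ side and 2.02 on the 3′ side, intervals apart. Beyond 2 kb the intervals of the sides overlapped in those genes.

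**Figure D3:**
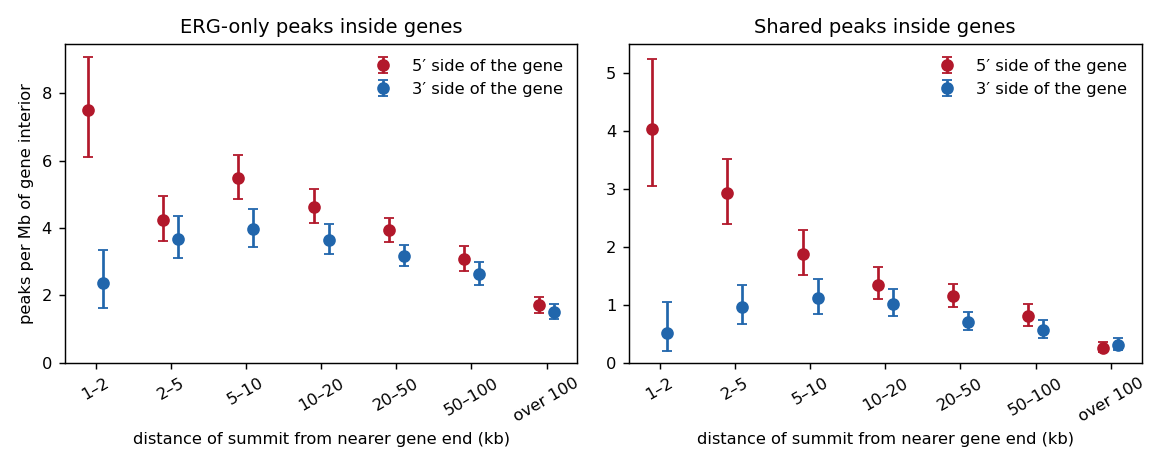
Density of ERG-only peaks inside genes (left) and of shared peaks inside genes (right) by the distance of the summit from the nearer gene end in kb, on the 5′ and the 3′ side of genes with known strand. Points are peaks per Mb of gene interior and bars 95% Poisson intervals; ERG-only peaks have 7.50 per Mb on the 5′ side and 2.38 on the 3′ side at 1 to 2 kb, and 1.71 and 1.51 beyond 100 kb.

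Few of the 4082 peaks lay on an annotated internal start. An internal protein-coding start was covered by 246 (6.03%, 5.32 to 6.80), a long non-coding RNA start by 63 (1.54%) and either kind by 281 (6.88%, 6.13 to 7.70). Of the 1150 shared peaks inside genes, 399 (34.7%, 31.9 to 37.5) covered either kind. The gap was also present among peaks of like height. Among peaks with 40 to 59 fragments the shares were 8.61% (6.76 to 10.8) of ERG-only and 34.1% (28.9 to 39.5) of shared peaks, and with 60 or more fragments 6.59% (4.27 to 9.65) and 43.0% (38.8 to 47.3). Counted from the starts, 288 of 5007 internal protein-coding starts over 1 kb from every gene end (5.75%) had an ERG-only peak inside the gene, and 623 (12.4%) had a shared ERG-library peak. ERG-only peaks on a start had a median width of 655 bp and a fold of 4.03, those away from starts 464 bp and 3.23, with medians of 31 and 29 fragments. The other 3801 peaks were away from every start in the table, which covers protein-coding and long non-coding genes and is not complete. Whether they were in introns or exons was not analysed here.

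Host genes without any end peak often had an internal start under a peak. Of the 957 such hosts, 190 (19.9%, 17.4 to 22.5) had an internal start under an ERG-library peak. Of 8800 genes with an interior, no ERG-only peak inside and no end peak, 194 (2.20%, 1.91 to 2.53) did. The hosts had at least 1 ERG-library peak inside by the rule and the others need not, so the difference is a description.

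Short motifs were counted on both strands of the 300-base windows of protein-coding starts. For this count internal starts within 1 kb of an end of another gene, left out of the 5007, were kept. The ETS letters CCGGAA were in 24.5% (19.6 to 29.8) of the 290 windows of internal starts under ERG-only peaks, 25.4% (22.3 to 28.7) of 736 under shared peaks, 9.50% (8.63 to 10.4) of 4200 without an ERG-library peak and 21.1% of all 22055 windows. The interval under ERG-only peaks overlapped that under shared peaks and took in the share of all windows. The GATA letters AGATAA were in 7.24%, 2.31%, 11.7% and 7.93% of the same windows, and the RUNX letters TGTGGT in 11.4%, 7.88%, 15.1% and 11.3%. Base composition moved with these shares: the median GC content was 65.5%, 68.7%, 54.7% and 62.3%, and its part in them was not tested. A match is not a binding site, and the windows cover only the peaks that lie on a start.

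The 10 peaks of highest deposited score had 55 to 155 fragments at the summit. The highest, in ZBTB16 (chromosome 11, 114216125 to 114216793), which encodes the zinc finger repressor PLZF, had a score of 464, 130 fragments and a fold of 5.14, and lay 41.2 kb from the nearest Vector-library peak. The peak in ZSCAN5A (chromosome 19, 56313968 to 56315142) had 103 fragments and a fold of 6.34, and that in EHD2 (chromosome 19, 47728779 to 47730800) had the most fragments of all 4082, 155, over a high local background of 35.9. The peak in TMEM107, a gene of the primary cilium, had 55 fragments and a fold of 9.83 over a background of 4.70. It was 356 bp wide, overlapped the small nucleolar RNA gene SNORD118, and lay 1084 bp from the gene end. It also reached the window of the non-coding start LOC105371520. The peaks in PPCDC (110 fragments), the zinc finger gene ZFP28 (60), the synaptic adhesion gene LRFN1 (89), RFX3, a regulator of cilium genes (87), NEK11, a kinase gene of the DNA damage checkpoint (65), and ZNF43 (56) completed the 10. Of these hosts, 4 had end peaks from the ERG library only (ZSCAN5A, EHD2, NEK11 and ZNF43), 3 from both libraries (ZBTB16, PPCDC and RFX3) and 3 from neither (TMEM107, ZFP28 and LRFN1). The fifth of the high-scoring peaks over a non-coding start lay in UPRT on the X chromosome, with 35 fragments, at the window of LOC124905200.

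High-scoring peaks sat on starts and on chromosome 19 more often than the 4082 as a whole. Among the 100 of highest score, 26 (17.7 to 35.7%) lay on an annotated start, against 6.88% of all 4082, and 14 (7.87 to 22.4%) on chromosome 19, against 4.97%. Hosts named as zinc finger genes (ZNF, ZSCAN, ZFP, ZBTB or ZKSCAN) held 8 of the 100 and 2.57% of all. Chromosome 19 also had the highest density over all 4082, 7.08 per Mb of gene interior (6.14 to 8.12), ahead of chromosome 22 at 6.18, and chromosome Y the lowest at 0.414, on 1 peak. These comparisons were chosen after their values were seen.

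The 10 genes with most ERG-only peaks inside were all long, from 193.9 to 1469 kb. SMYD3, a lysine methyltransferase gene of 757.9 kb, held 12, with summits of 12 to 62 fragments, and had no Vector-library peak anywhere in its record and no end peak in either library. Of its summits, 11 lay between 238.9 and 423.8 kb from its 5′ end and the other one at 650.1 kb. GSE1, whose product is found with the CoREST complex, also held 12 (13 to 68 fragments), beside 2 shared peaks. ZMIZ1, a coactivator of NOTCH1 and the androgen receptor, held 10 in 247.6 kb, with 29 to 77 fragments, and its lone Vector-library peak lay at a gene end. ABCC1, which encodes a drug exporter, had the highest density of the 10, 41.7 per Mb of interior, with ZMIZ1 next at 40.7.

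The other 6 held 8 each. In GPC5, a gene of a cell surface heparan sulfate proteoglycan, 4 summits of 95, 106, 87 and 56 fragments lay between 825.8 and 828.1 kb from the 5′ end, where the Vector list had no peak. The nearest Vector-library summit, at 766.7 kb and with 35 fragments, lay under a shared ERG-library peak of 96 fragments. In the synapsin gene SYN3 the ERG-only peaks lay among shared ones: 4 peaks inside it were shared, and 53 fragments were the median of the ERG-only ones. HPSE2 (a heparanase relative), ERC1 (a scaffold of neurotransmitter release sites) and RERE (an atrophin-family corepressor) had medians of 25, 42 and 39.5 fragments, and CDKAL1 (a transfer RNA modifying enzyme) had 27.5 and an end peak that only the ERG library showed.

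**Figure D4:**
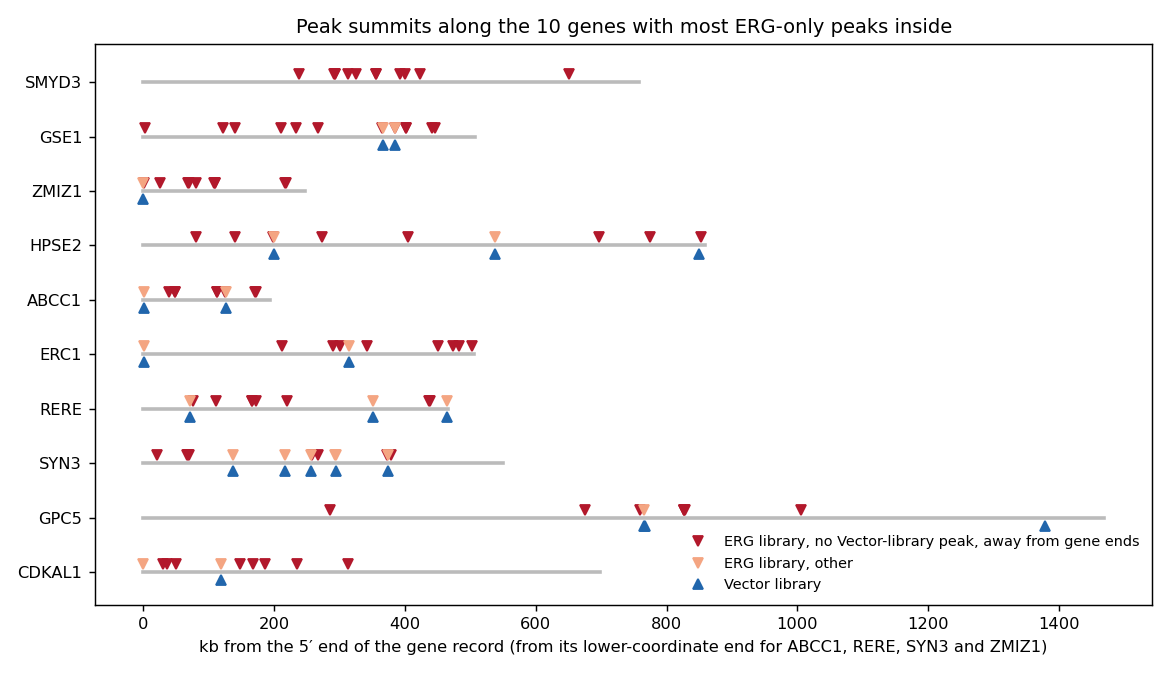
Summits along the 10 genes with most ERG-only peaks inside, with ERG-library summits above each line and Vector-library summits under it, in kb from the 5′ end of the record (from the lower-coordinate end for ABCC1, RERE, SYN3 and ZMIZ1, whose strand is not in the start table). SMYD3 has 12 ERG-only peaks and no Vector-library summit; GPC5 has 4 ERG-only summits close together at 825.8 to 828.1 kb.

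Gene lists were then read against the 12.9% of all protein-coding genes that were hosts. A second yardstick was the count that would result if each gene of the list were a host as often as all genes of its length band. Of 25 erythroid transcription regulators, 13 were hosts, 52.0% (31.3 to 72.2), where genes of the same lengths would give 4.11. They held 24 peaks with a median of 37 fragments. NFIA, a factor that favours the erythroid over the granulocytic lineage, held 7, of 19 to 33 fragments, from 38.4 to 176.2 kb from its 5′ end. BCL11A, the repressor of fetal globin genes, held 1 wide peak of 2371 bp (chromosome 2, 60549568 to 60551938) with 37 fragments, over an annotated BCL11A start and 204.6 kb from the nearest Vector-library peak. BACH1, a repressor released by heme, held 3 adjacent peaks of 51, 55 and 58 fragments, and GFI1B, a repressor needed for red cell and platelet development, held 2 of 37 and 64. The other hosts were IKZF1, LMO2, ZBTB7A, KLF13, TAL1, MAFG, LDB1, ZFPM1 and MYB. The MYB peak had 62 fragments and lay 11.3 kb from the 5′ end of this gene, a factor of immature blood cells.

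Genes that build the red cell included many hosts. Of 34 red cell membrane and blood group genes, 15 were hosts, 44.1% (27.2 to 62.1), where genes of the same lengths would give 5.14. ANK1, which encodes the ankyrin that ties the membrane to its skeleton, held 5 peaks of 24 to 61 fragments, and EPB41, the gene of protein 4.1, held 3 of 51, 71 and 26. The glycophorin gene GYPB held 4 of 30 to 53 fragments, and the blood group gene RHD 3 of 48 to 67. GYPB has a near-identical copy in GYPE and RHD in RHCE, and both copies were hosts too, so reads may be split among them. The RHD peaks also lie in the overlapping record of RSRP1.

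Of 22 heme synthesis and transport genes, 8 were hosts, 36.4% (17.2 to 59.3), where the same lengths would give 2.08. With a gene-end window of 2.5 kb 5 of 22 were hosts, 22.7% (7.82 to 45.4), an interval that takes in the 11.6% of all genes at that setting. With a Vector-library peak within 1 kb counted as shared, and with a q-value of at most 0.001, 6 of 22 were (10.7 to 50.2%). That interval takes in the 12.3% and 11.8% of all genes there. The upper 50% by score had 3 of 22 (2.91 to 34.9%), which takes in 4.87%. A window of 0.5 kb kept 8 of 22 (17.2 to 59.3%), above 13.8%. CPOX, a late enzyme of the pathway, held 2 peaks of 14 and 40 fragments, and FECH, which inserts the iron, 2 of 48 and 61. ABCB6, a porphyrin transporter that carries a blood group antigen, held 1 of 41, and ALAS2 1 of 15 fragments, 473.4 kb from any Vector-library peak. The peaks of FECH and ABCB6 thus lay within 3 kb of Vector-library acetylation, and that of ALAS2 did not. The ALAS2 peak was low, and the Vector list needed 8 fragments at its genome background. At shared peaks inside genes the ERG library had a median of 2.08 times the Vector-library fragments. With ERG-library fragments scaled by the ratio of genome backgrounds, 1.44, the 8 heme hosts all stayed, ALAS2 with its 1 peak among them. The outcome for the ALAS2 peak at the larger ratio of 2.08 is not given here. Iron handling genes were hosts in 2 of 17 (11.8%), near the share of all genes, with SLC11A2, an iron importer, at 34 fragments and BMP6, which raises hepcidin, at 15. In erythropoietin and cytokine signalling 8 of 28 were hosts (28.6%, 13.2 to 48.7), where the same lengths would give 4.11. The adaptor gene SH2B3 held 3 of 58, 62 and 82 fragments, BCL2L1, which protects erythroblasts from cell death, 3 of 120, 67 and 54, PTPN11, a phosphatase gene, 1 of 49, and the kinase gene LYN 2 of 50 and 40.

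**Figure D5:**
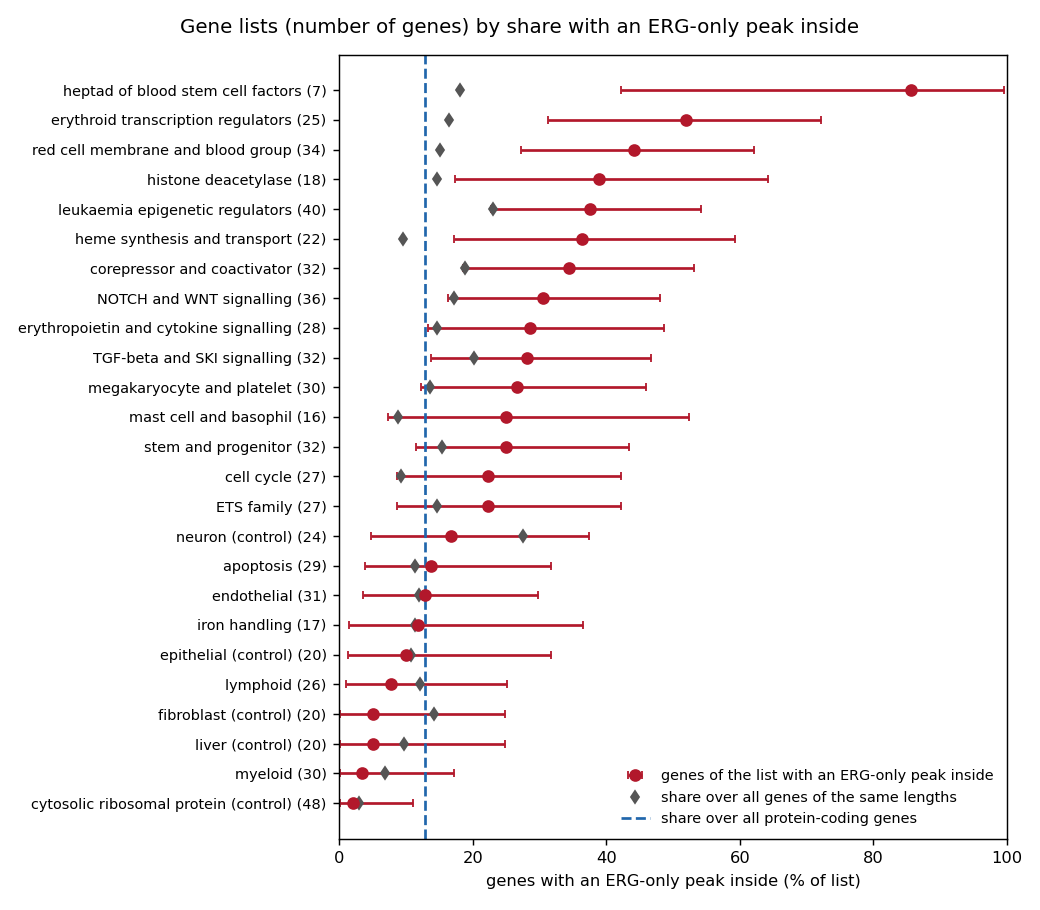
Percent of the genes of each list that hold an ERG-only peak inside, with the number of genes in brackets. Red points have 95% exact binomial bars, grey diamonds give the share over all genes of the same length bands and the dashed line the 12.9% of all protein-coding genes; 52.0% of erythroid transcription regulators and 3.33% of myeloid genes are hosts.

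Transcription factors of the heptad, 7 in number with ERG among them, which bind together in blood stem cells, had 6 hosts, 85.7% (42.1 to 99.6), and genes of the same lengths would give 1.26. RUNX1, a regulator of blood cell emergence, held 7, of 27 to 83 fragments, and 3 of these stood side by side from 20.8 to 22.7 kb from its 5′ end. GATA2, a factor of stem and mast cells, held 1 of 145 fragments over a local background of 79.2, so its fold was 1.82, and it lay 1.76 kb from a Vector-library peak. FLI1, a close relative of ERG, held 2 of 43 and 34 fragments. TAL1 held 1 of 110 and LMO2 1 of 44 fragments. ERG itself held 3, of 41, 91 and 37 fragments, at 278.2, 185.6 and 163.8 kb from its 5′ end. Copies of ERG from the plasmid and the resident gene cannot be told apart in exons, and exon positions were not used here.

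In the ETS family as a whole, ERG and FLI1 included, 6 of 27 genes were hosts, 22.2% (8.62 to 42.3), where the same lengths would give 3.96. ETV6, an ETS repressor, held 7 of 47 to 131 fragments, and ELF1 5 of 19 to 47, of which 2 lay on annotated ELF1 starts. Of the stem and progenitor list, which shares RUNX1, ERG and GATA2 with the heptad, 8 of 32 were hosts (25%, 11.5 to 43.4). The same lengths would give 4.93, and the interval takes in the 12.9% of all genes. CD34, the stem cell surface gene, held 3 of 39, 45 and 42 fragments.

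Among genes of other blood lineages, the share of hosts ran from 3.33% in the myeloid list to 26.7% in the megakaryocyte and platelet list. In the megakaryocyte and platelet list 8 of 30 were hosts (26.7%, 12.3 to 45.9), where the same lengths would give 4.06. TBXAS1, the thromboxane synthase gene, held 4 of 25 to 66 fragments, RAB27B, a gene of granule release, 3 of 17 to 23, and NBEAL2, needed for platelet alpha granules, 1 of 57 over an annotated start. Among 16 mast cell and basophil genes 4 were hosts (25%, 7.27 to 52.4): GATA2, IL1RL1, the interleukin 33 receptor, MITF, a mast cell regulator, and HDC, the histamine-forming enzyme, where the same lengths would give 1.40. Of 30 myeloid genes 1 was a host (3.33%, 0.0844 to 17.2), FCGR1A with 24 fragments, in a stretch where other gene records overlap. These genes are short, 11.2 kb in the median, and the same lengths would give 2.08. Of 26 lymphoid genes 2 were hosts, LEF1 with peaks of 37 and 28 fragments and RAG1 with 11, where the same lengths would give 3.15. Of 31 endothelial genes 4 were hosts (12.9%, 3.63 to 29.8), ERG, TAL1, EFNB2 and PECAM1, the same share as over all genes in the full lists, and the same lengths would give 3.71. With both lists limited to their better-scoring 50%, 6 of the 31 were hosts (19.4%, 7.45 to 37.5), where 4.87% of all genes were. That setting also drops lower-scoring Vector-library peaks, so ERG-library peaks that overlap only those count as ERG-only there. The rise from 4 to 6 hosts comes from such peaks and is not a gain of ERG-only peaks in the full lists.

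Regulators of acetylation and chromatin were hosts at shares of 34.4 to 38.9%. Of 18 histone deacetylase genes 7 were (38.9%, 17.3 to 64.3), where the same lengths would give 2.63: HDAC5 (41 fragments), HDAC8 (34), SIRT4 (23), SIRT3 (25), HDAC4 (17), HDAC2 (14) and HDAC7 (44). The HDAC7 peak (chromosome 12, 47819364 to 47819705), in the class IIa deacetylase gene of the series title, was 342 bp wide with a fold of 2.66, and its summit lay 1.82 kb from the 5′ end. Each of the 7 held 1 peak. Matched also for an ERG-library end peak, which 16 of the 18 genes had, the count would be 3.15. The interval of 17.3 to 64.3% takes in the share behind that count. Of 32 corepressor and coactivator genes 11 were hosts (34.4%, 18.6 to 53.2), where the same lengths would give 6.02. With ERG-library end peaks matched as well, the count would be 7.54. The interval takes in the shares behind both counts, and 28 of the 32 genes had an ERG-library end peak. RCOR1, the CoREST gene, held 3 peaks of 59, 46 and 13 fragments, and the acetyl-lysine reader BRD2 and the acetyltransferase KAT6A 1 each, of 31 and 30.

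Of 40 epigenetic regulators mutated or rearranged in leukaemia 15 were hosts (37.5%, 22.7 to 54.2), where the same lengths would give 9.24. Matched also for an ERG-library end peak, which 34 of the 40 had, the count would be 11.2. The interval takes in the shares behind both counts. BCOR, a Polycomb corepressor gene, held 7 of 18 to 63 fragments, TET3 4 of 20 to 56, and DNMT3A and CHD8 1 each of 42 and 51. In TGF-β and SKI signalling 9 of 32 were hosts (28.1%, 13.8 to 46.8), where the same lengths would give 6.44. SKI, a repressor of SMAD signalling, held 5 of 33 to 97 fragments, ACVR1, a receptor gene, 4 of 18 to 62, TGFB1, the ligand, 1 of 121, and TGFBR2 1 of 61. In NOTCH and WNT signalling 11 of 36 were hosts (30.6%, 16.4 to 48.1), where the same lengths would give 6.2. The coactivator gene MAML3 held 4 of 44 to 75 fragments, the receptor genes NOTCH2 and NOTCH1 2 each, of 24 and 20 and of 22 and 25. Of 27 cell cycle genes 6 were hosts (22.2%, 8.62 to 42.3), where the same lengths would give 2.48. That interval takes in the 12.9% of all genes. CCND3, the cyclin whose level shapes red cell size, held 3 of 34, 31 and 60, and PCNA, CDK6 and E2F3 were among the others. Of 29 apoptosis genes 4 were hosts (13.8%), near the share of all genes, with APAF1 at 43, BAK1 at 36 and the 3 BCL2 peaks at 13 to 17 fragments.

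The counts of the control lists lay close to or under those of genes of the same lengths. Hosts numbered 1 of 48 ribosomal protein genes (2.08%; RPL30, 31 fragments), where the same lengths would give 1.45. They numbered 1 of 20 liver genes (CPS1) against 1.95 (same lengths), 2 of 20 epithelial genes (LAMB3 and ESRP1) against 2.14, 1 of 20 fibroblast genes (FBN1) against 2.83, and 4 of 24 neuron genes (CNTNAP2, GAD1 and NRXN3 among them). The neuron genes had a median length of 394.9 kb, and at the shares of that length 6.60 would be hosts. Their 6 peaks had 11 to 26 fragments. The ERG library had end peaks at all 48 ribosomal protein genes, and their median length was 4.86 kb.

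The lists also hold shared and Vector-only peaks inside their genes. The erythroid transcription regulators had a shared peak inside 7 genes and a Vector-only peak inside 4, and the red cell membrane list had them in 3 and 5. With an ERG list shortened to the same number of peaks as the Vector list, 3 of 25 erythroid regulators (12.0%, 2.55 to 31.2) and 3 of 7 heptad genes were hosts, where 2.76% of all genes were, and the heme list had 1 of 22 (4.55%, 0.115 to 22.8).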

How the data were processed

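H3K27ac chromatin immunoprecipitation followed by sequencing was done on 1 ERG library and 1 Vector library of F36P cells. Per the labels' protocols, formaldehyde-fixed chromatin was digested by micrococcal nuclease and nuclei were opened by sonication. Tools in the submitters' processing notes are Bowtie2, deepTools and MACS2, with no version, and the build there is hg38. Use of an input library, read filters and peak calling settings are not given in the sources used here. Each deposited file is a list of peaks of 1 library, so peaks were not pooled. The deposited score ranks peaks. The deposited fold is a ratio of the summit to its local background. The deposited −log10 p-value and the deposited −log10 q-value came from the peak caller, and the lowest −log10 q-value was 1.31 in the ERG list and 1.32 in the Vector list. All of these are the authors' values. Scores and folds were compared only inside 1 list, while −log10 p-values and the fragments solved from them also served to set the depths of the libraries side by side.

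Fragments at each summit and their local background were solved from the deposited fold and −log10 p-value as MACS2 defines them (relative error of −log10 p at most 0.0001), which worked for all 19671 and 9161 peaks. The calculation was tested on simulated data. The lowest background stands for the depth of a library, whose read total is not known. Peaks off chromosomes 1 to 22, X and Y (698 in the ERG list) were left out. Genes, starts and microRNAs came from RefSeq tables of GRCh38.p14, whose chromosome coordinates are those of hg38. Strand was known for 79.1% of 20037 protein-coding genes. Peaks counted as shared from 1 bp of overlap, and a gene end meant 1 kb either side of a record's start or end. No genome sequence was used, so introns, exons and sequence under most peaks were not analysed here.

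Shares have exact (Clopper-Pearson) 95% intervals, medians order-statistic intervals and densities exact Poisson intervals, all for counting error only and treating peaks as independent, which neighbouring peaks are not. The members and the 25 gene lists (643 names, all matched) were chosen with earlier results of these data known, so list counts are descriptions. Genes were named by rule: the 10 peaks of highest score, the 10 hosts with most peaks, up to 4 hosts per list by covered length, the 5 peaks on either side of the 1 kb limit, the 5 highest peaks over non-coding starts and all microRNA hairpins. Further hosts were named after their values were seen. Some genes that meet the rule are not reported here. Alternatives changed the gene-end window, the overlap, the score and q-value limits, the list length, the depth and the gene records. Python 3.11.15, numpy 2.4.6, pandas 2.3.3, scipy 1.17.1 and matplotlib 3.10.9 were used.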

Additional observations from a re-analysis of the deposited data

How the results depend on the processing

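Values are given against 4082 peaks, 36.9% of the unshared ones, 2589 hosts, 62.4% of hosts with an ERG-library end peak, and 5.23 and 2.61 peaks per Mb in genes with and without a Vector-library end peak. Limiting the ERG list to the length of the Vector list gave 603, 24.0%, 553, 46.3%, 0.763 and 0.397, and the upper 50% of each list by score gave 1141, 21.4%, 976, 45.1%, 1.39 and 0.841. Both settings keep fewer peaks by construction. The score limit, like the q-value limit below, also drops Vector-library peaks, so ERG-library peaks that overlap only those count as unshared there. A gene-end window of 0.5 kb moved the shares to 38.8% and 58.1% and the density without a Vector-library end peak to 2.87, and 2.5 kb moved them to 33.8%, 67.4% and 2.37. Scaling to the Vector background gave densities of 4.68 and 2.37, counting a Vector-library peak within 1 kb as shared gave 4.81 and 2.48, and a q-value of at most 0.001 gave 4.62 and 2.38 and a share of 35.3%. The cause of these shifts was not tested. The density was higher in genes with a Vector-library end peak under all 9 alternatives run. Of 225 counts of hosts in the lists under these alternatives, 178 stayed within 1.5 times the reported count. The lists lack read totals and the Vector-library signal at peaks called in the ERG library alone, so neither could be measured. No paired analysis was possible because each group has 1 sample, and for the same reason no replicate could be left out.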
